A study of Mus musculus with 80 samples.

Results

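In brown adipose tissue (BAT), UCP1 KO mice were compared with mice that also lack the hormone FGF21 (UCP1/FGF21 double knockout, dKO), so that the groups differ by design in whether the Fgf21 gene is intact when UCP1 is missing. The 10 libraries were taken by their labels, 5 labelled UCP1 KO and 5 labelled UCP1/FGF12 double KO, out of 80 libraries in the series, which holds 4 tissues and 4 genotypes with 5 libraries each. The double knockout label names FGF12, as does a line of the methods, whereas the study otherwise describes FGF21, and the counts of both genes open the account of single genes. RNA sequencing was used in every library, and values are read counts per gene. All mice of the comparison were males on the C57BL/6J background that lacked UCP1 from the germline. They were raised at 30 °C, were moved to room temperature at 10 to 12 weeks of age, and then ate a high-fat diet for 3 weeks. The dKO line came from crossing homozygous UCP1 KO with FGF21 KO mice, so that both genes were absent in every tissue throughout life and not in BAT alone. Their heterozygous offspring gave homozygous mice of each genotype, and these were bred once more for the experiment. Line, litter and sequence linked to Fgf21 may therefore go with the genotype and cannot be told apart from it. The labels do not say which mouse gave which library or link the tissues of 1 mouse, and p-values measure the spread between these libraries only. The WT and FGF21 KO libraries of BAT, from mice kept the same way, are used where the same Fgf21 loss is read in mice with UCP1.

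FGF21 is a hormone of the endocrine fibroblast growth factors, which bind an FGF receptor, mainly FGFR1 in fat, together with the co-receptor β-klotho encoded by Klb. The activated receptor signals through the adaptor FRS2 and the RAS-ERK cascade. ERK activity switches on genes that feed back on the cascade, among them the Dusp phosphatases, the Sprouty and Spred inhibitors and the Etv transcription factors, and the RNA of these genes is a common readout of FGF signalling. BAT burns fuel for heat through UCP1 in the inner mitochondrial membrane, and it makes FGF21 itself under cold or mitochondrial stress.

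The 10 libraries held 34890799 to 46513671 counts each. The tissue label was checked with marker scores, the mean log2 of CPM (the count of a gene scaled to the TMM-adjusted total of its library) plus an offset of 0.1 over a marker list. Brown adipocyte markers, a list that includes the knocked-out Ucp1, scored 7.25 to 7.82 in UCP1 KO and 7.59 to 7.75 in dKO. Skeletal muscle markers varied most among the marker lists, from 2.26 to 9.37 in UCP1 KO and from 2.87 to 8.48 in dKO. Libraries 1, 3 and 4 of dKO and library 2 of UCP1 KO were above 8 on this scale, and the first principal component of the 10 libraries, with 40.8% of the variance, followed the same score (r = 0.988 over 10 libraries that share both measures, as a description). The summed level of the muscle markers ran from 77.8 to 8920 CPM in UCP1 KO and from 138 to 4730 CPM in dKO, and each of the 10 markers was counted in each of the 10 libraries. Macrophage markers scored 3.2 to 4.61 in UCP1 KO and 3.03 to 3.9 in dKO. Library 5 of UCP1 KO had the lowest mature adipocyte score of the 10, 9.66, and a macrophage score of 4.31. In such bulk tissue fewer cells of a type and less RNA per cell cannot be told apart. None of the 190 pairs among the 20 BAT libraries was identical.

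**Figure D1:**
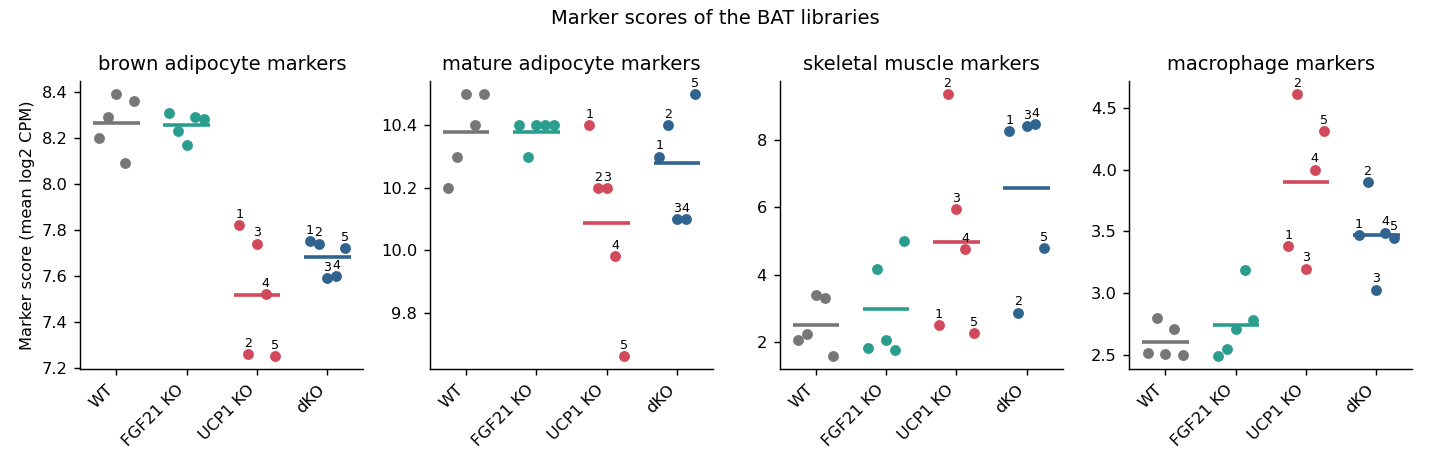
Marker scores (mean log2 CPM, vertical axis) of the 20 BAT libraries by genotype, for brown adipocyte, mature adipocyte, skeletal muscle and macrophage marker lists. Points are libraries, bars are genotype means and digits are the library numbers of UCP1 KO and dKO. The skeletal muscle score spans 2.26 to 9.37 in UCP1 KO and 2.87 to 8.48 in dKO, and library 5 of UCP1 KO has the lowest mature adipocyte score, 9.66.

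Few genes separated the groups. Of 15729 genes tested, 10 passed an adjusted p of 0.01 in edgeR's quasi-likelihood test, a share of 0.0636%, and all 10 were higher in UCP1 KO. They were Fgf21, Dusp4, Akap12, Spred1, Arhgef37, Etv5, Gabbr2, Spred2, Hsd17b14 and Prlr. At an adjusted p of 0.05, 28 genes were higher (0.178%) and 6 were lower (0.0381%). At an unadjusted p of 0.05, 1128 genes were higher (7.17%) and 907 were lower (5.77%). All 5 libraries of UCP1 KO lay above all 5 of dKO for 76 genes (0.483%) and below them for 117 (0.744%). The median size of the difference was 0.133 on the log2 scale, below its median standard error (SE) of 0.145, and the 95% interval lay inside 2-fold for 12839 genes (81.6%).

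The calls depended on the setting. The fit used all 20 BAT libraries to estimate the spread, and with the 10 libraries of the 2 genotypes alone Fgf21 was the only gene called, with adjusted p-values from 0.221 to 0.359 for the other 9 in edgeR. DESeq2 called 56 genes, 46 higher and 10 lower, including all 10. A term for the macrophage score, added after the data had been seen, also ended the call of all 9 genes besides Fgf21, with edgeR adjusted p-values from 0.0107 for Dusp4 and Akap12 to 0.0728 for Etv5. The log2 fold changes were then 2.09 for Dusp4, 0.96 for Spred1, 0.84 for Spred2, 0.59 for Akap12, 1.90 for Arhgef37, 3.42 for Gabbr2, 1.79 for Hsd17b14 and 2.29 for Prlr. With the 4 libraries above a muscle score of 8 left out, also added after the data had been seen, 7 genes were called, 3 higher and 4 lower, of which Fgf21 was the only one shared with the 10. Leaving out 1 BAT library at a time gave 1 gene (without dKO library 1) to 32 genes (without UCP1 KO library 1). The fold changes themselves moved less: for Dusp4 the log2 fold change stayed between 1.97 and 2.33 over all these settings, for Spred1 between 0.79 and 1.02, for Spred2 between 0.73 and 0.96 and for Etv5 between 1.19 and 1.71. Gabbr2 ran from 2.69 to 3.565, Prlr from 2.16 to 2.86 and Arhgef37 from 1.54 to 2.085. Hsd17b14 ran from 1.79 to 2.11 and Akap12 from 0.50 to 0.64.

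**Figure D2:**
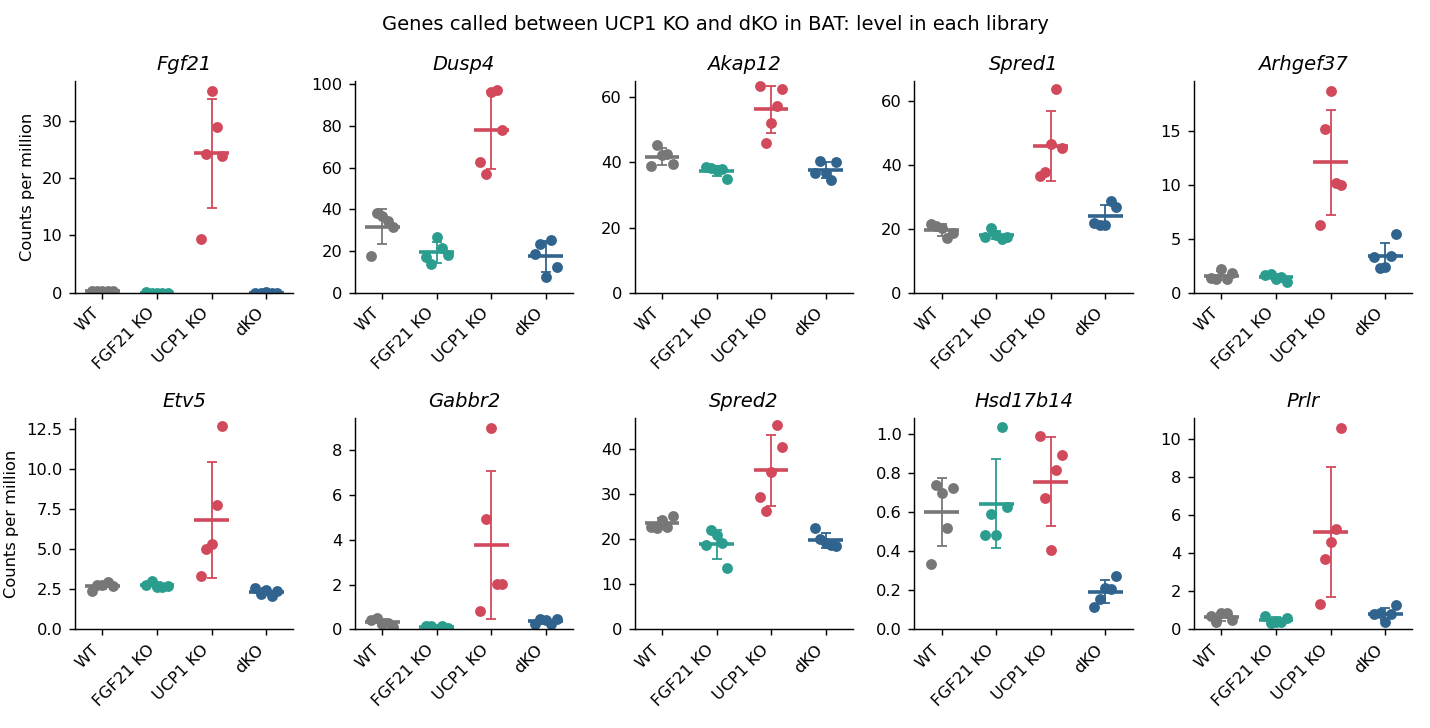
Level (CPM, vertical axis, starting at 0) of the 10 called genes in each of the 20 BAT libraries by genotype. Points are libraries, bars are means and whiskers are SD. In UCP1 KO all 10 genes lie above every dKO library, and for Hsd17b14 the dKO mean (0.192 CPM) lies below those of WT (0.603 CPM) and FGF21 KO (0.645 CPM).

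Fgf21 itself (chr7:45613886-45615490, minus strand) checked the labels. It had 9.47, 24.2, 35.2, 29 and 23.9 CPM in the 5 UCP1 KO libraries and 0 to 3 counts in each dKO library. Against a floor of 3 counts per dKO library, Fgf21 in UCP1 KO was at least 340-fold higher (edgeR adjusted p = 1.27e-10). The lowest UCP1 KO library, library 1, still lay above 0.29 CPM, the highest WT library, and WT averaged 0.25 ± 0.0232 CPM (SD, n = 5). Fgf12, the gene that the double knockout label names, had 0 to 2 counts per library in UCP1 KO and 0 to 3 in dKO, too few to test. By these counts the gene missing from the libraries with the double knockout label was Fgf21.

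The promoter of Fgf21 is shown because Fgf21 is the gene deleted in dKO alone. It is the window from 250 bases upstream to the base before the start, on the minus strand at chr7:45615491-45615740 (RefSeq, GRCm38.p6), and capitals mark the ATF4 composite element TGATGNAA, searched on both strands, and the CRE half-site TGACG.
Fgf21 promoter: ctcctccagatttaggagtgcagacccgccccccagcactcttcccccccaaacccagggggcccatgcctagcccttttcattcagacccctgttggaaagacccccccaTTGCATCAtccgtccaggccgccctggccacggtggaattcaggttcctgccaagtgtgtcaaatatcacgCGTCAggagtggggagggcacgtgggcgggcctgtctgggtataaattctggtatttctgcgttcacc
The ATF4 element lies 132 to 139 bases upstream of the start, on the other strand, and occurs in 3.45% of all 32851 promoter windows of this length, whereas 17.8% hold the half-site.

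Ucp1, the uncoupling protein deleted in both groups, was still counted. It had 1232, 875, 1238, 837 and 530.0 CPM in UCP1 KO and 1427, 1849, 1160, 1046 and 1883 CPM in dKO, against 5807 ± 1608 CPM in WT (SD, n = 5). The groups overlapped, with library 5 of UCP1 KO the lowest, and the log2 fold change was -0.64 ± 0.24 (SE), which did not pass (edgeR adjusted p = 0.295).

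Klb and Fgfr1 did not separate the groups. Klb, the co-receptor, had 72, 50.7, 54.2, 52.5 and 64.5 CPM in UCP1 KO and 61.8, 74.9, 50.6, 53.3 and 66.2 CPM in dKO. Its log2 fold change was -0.062 with a 95% interval from -0.30 to 0.18. Fgfr1, the main FGF receptor of fat, had 56.1 ± 5.99 CPM in UCP1 KO and 52.6 ± 6.2 CPM in dKO (SD, n = 5), a log2 fold change of 0.094 with a 95% interval from -0.10 to 0.29. Both intervals excluded a 1.5-fold difference. Of 13 tested genes of the receptor complex and its adaptors, Fgf21 was the only one called, against 0.0636% of all genes, and 12 had an interval inside 2-fold, against 81.6%. For 1 of the 13, all UCP1 KO libraries lay below all dKO libraries, against 0.744% of all genes. At an unadjusted p of 0.05 the adaptor Frs2 (log2 fold change -0.23, edgeR adjusted p = 0.194) and the RAS exchange factor Sos1 (-0.20, edgeR adjusted p = 0.329) were lower in UCP1 KO, against 5.77% of all genes. Among 10 other FGF ligands with enough counts 0 were called in edgeR. At an unadjusted p of 0.05, 3 were lower (Fgf14, Fgf16 and Fgf9) and 1 was higher (Fgf2), against 5.77% and 7.17% of all genes. For 2 of the 10, all UCP1 KO libraries lay below all dKO libraries, against 0.744% of all genes. The smallest p-values were those of Fgf16 (log2 fold change -1.73, edgeR adjusted p = 0.0816) and Fgf14 (-1.80, edgeR adjusted p = 0.096), both under 1 CPM on average in dKO. DESeq2 called Fgf14 (adjusted p = 0.00109), and Fgf16 was at -0.76 without the 4 libraries with a high muscle score.

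Feedback genes of the ERK cascade made up 4 of the 10 called genes, where 0.0636% of all genes were called. They come from 2 lists, with 10 and 24 tested genes. Dusp4 (chr8:34807297-34819894), a nuclear phosphatase that inactivates ERK, had 62.6, 56.8, 96.4, 97.1 and 78 CPM in UCP1 KO. In dKO it had 18.7, 23.4, 7.5, 25.5 and 12.5 CPM. The lowest UCP1 KO library was more than 2-fold above the highest dKO library, and the log2 fold change was 2.16 ± 0.29 (SE, edgeR adjusted p = 0.0024). The WT mean of 31.7 ± 8.37 CPM lay between the groups, and FGF21 KO, at 19.3 ± 4.9 CPM, was near dKO.

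Spred1 (chr2:117121374-117182279) encodes a membrane-associated inhibitor of ERK signalling. It had 36.6, 37.7, 46.6, 63.9 and 45.3 CPM in UCP1 KO and 21.9, 21.1, 21.3, 28.8 and 26.8 CPM in dKO. All 5 UCP1 KO libraries were above all dKO libraries, with library 4 the highest, a log2 fold change of 0.94 ± 0.13 (SE, edgeR adjusted p = 0.00241). Its relative Spred2 (chr11:19924375-20024026) had 29.3, 26.2, 35, 45.4 and 40.5 CPM in UCP1 KO and 22.6, 20, 19.2, 18.6 and 18.6 CPM in dKO. The groups were again apart, with library 2 of UCP1 KO nearest to dKO, and the log2 fold change was 0.83 ± 0.13 (SE, edgeR adjusted p = 0.00746). The call of Spred2 was lost in 17 of 20 fits with 1 BAT library left out. It was also lost with a term for the muscle score (0.77, edgeR adjusted p = 0.0218). In FGF21 KO, Spred1 had 18 ± 1.32 CPM and Spred2 18.9 ± 3.2 CPM (SD, n = 5).

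Etv5 (chr16:22381309-22439719), an ETS transcription factor that FGF signals induce in many tissues, had 3.35, 5.02, 5.32, 7.74 and 12.7 CPM in UCP1 KO and 2.61, 2.2, 2.48, 2.06 and 2.42 CPM in dKO. The dKO libraries were tightly grouped, and the UCP1 KO libraries spread from just above them to library 5. The log2 fold change was 1.54 ± 0.24 (SE, edgeR adjusted p = 0.00746), and 1.19 without library 5 (edgeR adjusted p = 0.00499). With a term for the macrophage score it was 1.32 (edgeR adjusted p = 0.0728). Levels in dKO (2.35 ± 0.221 CPM), WT (2.72 ± 0.223) and FGF21 KO (2.76 ± 0.17) lay side by side.

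The upstream windows of these feedback genes, 250 bases each and without the start itself, are shown because these feedback genes were called in the same direction. They come from RefSeq on GRCm38.p6, which has no window for Dusp4 in the table used, and Spred1 is at chr2:117120821-117121070 (plus strand), Spred2 at chr11:19924192-19924441 (plus strand) and Etv5 at chr16:22439571-22439820 (minus strand, the first of its 2 starts).
Spred1 promoter: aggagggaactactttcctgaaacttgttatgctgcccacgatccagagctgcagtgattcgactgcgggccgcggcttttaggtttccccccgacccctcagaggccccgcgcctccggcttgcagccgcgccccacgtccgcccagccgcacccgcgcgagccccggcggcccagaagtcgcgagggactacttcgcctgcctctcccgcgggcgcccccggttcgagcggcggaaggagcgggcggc
Spred2 promoter: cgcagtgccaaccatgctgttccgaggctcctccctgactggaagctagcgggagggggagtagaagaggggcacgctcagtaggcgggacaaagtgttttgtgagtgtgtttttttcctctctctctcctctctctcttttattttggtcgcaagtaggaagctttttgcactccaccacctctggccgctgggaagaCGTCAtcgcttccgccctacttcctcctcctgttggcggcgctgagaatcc
Etv5 promoter: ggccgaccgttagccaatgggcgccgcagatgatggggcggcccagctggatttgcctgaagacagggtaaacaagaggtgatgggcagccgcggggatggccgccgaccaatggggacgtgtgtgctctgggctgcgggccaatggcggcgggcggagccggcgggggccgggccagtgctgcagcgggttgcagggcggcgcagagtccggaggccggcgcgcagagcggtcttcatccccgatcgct
Both strands were searched for an ETS core CCGGAA (in 12.0% of all 32851 windows), a full cyclic AMP response element TGACGTCA (1.55%, which contains the half-site), its half-site TGACG (17.8%), an AP-1 site TGANTCA (6.75%), the ATF4 element (3.45%) and a CArG box (1.47%). The single match, in capitals, was the half-site in Spred2 at 47 to 51 bases upstream on the other strand, and no letters of the other motifs occurred in these 3 windows.

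The other genes of ERK output did not pass the threshold. A published 10-gene signature of MAPK activity, all tested, held 2 called genes, Dusp4 and Etv5, against 0.0636% of all genes. At an unadjusted p of 0.05, 4 of the 10 were higher, against 7.17%, and 9 of its 10 members had a positive log2 fold change, with a median of 0.416 against 0.00442 over all genes. Spry4, a Sprouty inhibitor, had 27.6, 12.4, 13.5, 19.8 and 20.4 CPM in UCP1 KO and 12.5, 12.7, 8.06, 11.1 and 10.3 CPM in dKO. Libraries 2 and 3 of UCP1 KO lay within the dKO range or just above it, and the log2 fold change of 0.77 ± 0.20 (SE) had an unadjusted p of 0.00108 and did not pass (edgeR adjusted p = 0.159). Etv4, a relative of Etv5, stayed under 1 CPM in every library (1.06 ± 0.41, SE, edgeR adjusted p = 0.303). Dusp6, the cytoplasmic ERK phosphatase, had 90.5, 48.1, 46.5, 80.8 and 51 CPM in UCP1 KO and 47, 80.2, 19.9, 23.9 and 33.6 CPM in dKO. The groups overlapped widely through library 2 of dKO, with a log2 fold change of 0.63 ± 0.33 (SE, edgeR adjusted p = 0.437). It was 1.03 without that library and 0.24 without the 4 libraries with a high muscle score. Spry2 (0.20), the cell cycle gene Ccnd1 (0.15), the ephrin receptors Epha2 (0.039) and Epha4 (0.083) and Phlda1 (-0.23) had adjusted p-values from 0.64 to 0.957 in edgeR.

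Of 24 tested members of a wider list of ERK feedback and target genes, 2 were called, Spred1 and Spred2, against 0.0636% of all genes. At an unadjusted p of 0.05, 5 were higher and 1 lower, against 7.17% and 5.77% of all genes, and the median was 0.0667. The lower one was Spry1, a Sprouty feedback inhibitor, at -0.29 ± 0.13 (SE, edgeR adjusted p = 0.354), named here after its value was seen. Etv1, the third of the Etv relatives, had a log2 fold change of 0.58 ± 0.15 (SE, edgeR adjusted p = 0.159), and Mafk, a small Maf transcription factor, of 0.86 ± 0.27 (edgeR adjusted p = 0.23), and 0.47 without library 5 of UCP1 KO. The kinases and adaptors of the cascade did not pass. Of 20 tested core genes 0 were called in edgeR, 2 were higher and 2 lower at an unadjusted p of 0.05, against 7.17% and 5.77% of all genes, and 19 had an interval inside 2-fold, against 81.6%. Of 20 immediate early genes, which ERK and other signals induce within minutes, 16 were negative with a median of -0.463, 0 were lower at an unadjusted p of 0.05, against 5.77% of all genes, and the spread was wide, Fos having 2.1 to 15 CPM in UCP1 KO and 1.93 to 42.7 CPM in dKO. None of the 20 was called, and 1, Klf6 (0.33), was higher at an unadjusted p of 0.05 in edgeR, against 7.17%.

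**Figure D3:**
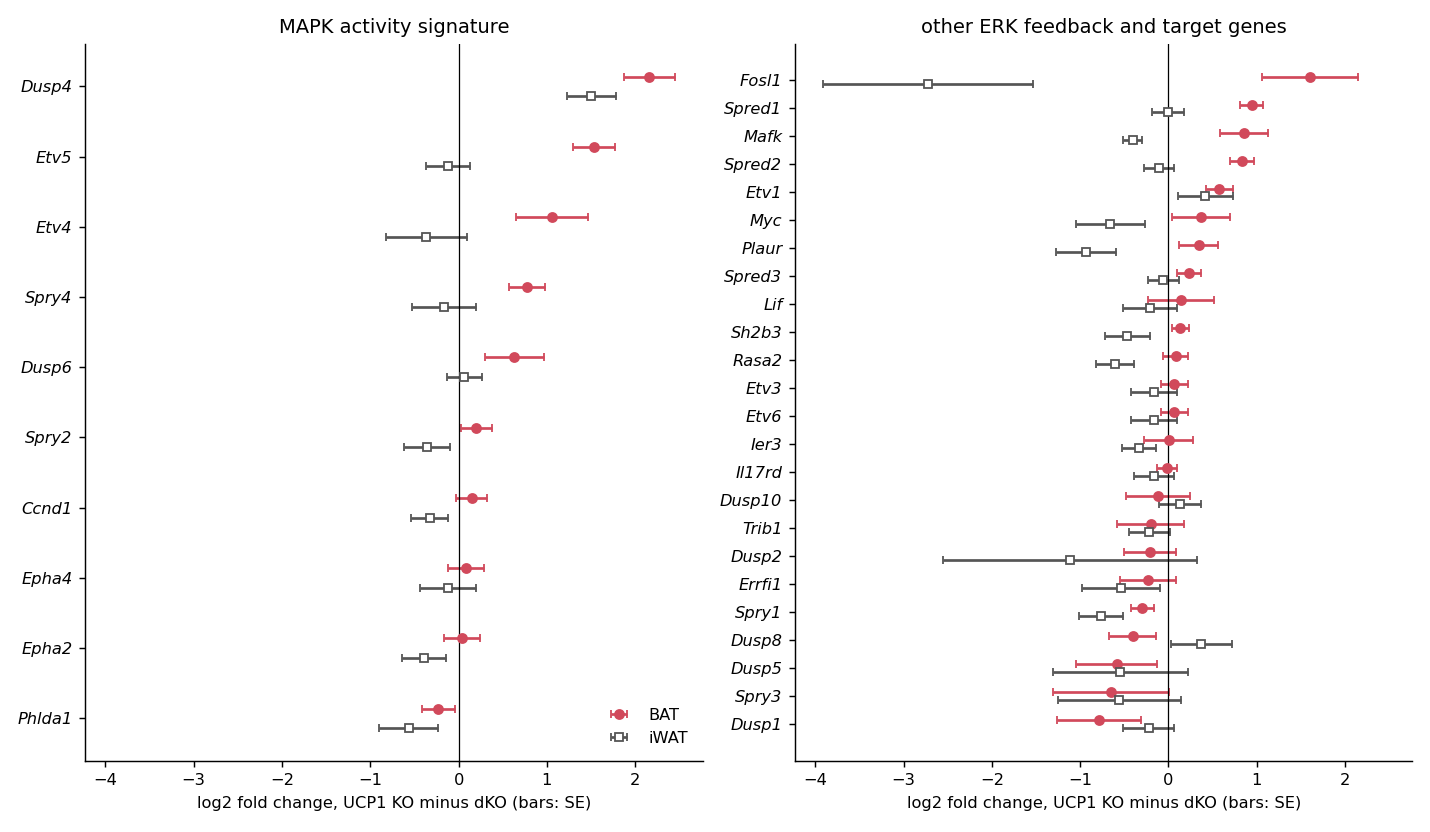
Log2 fold change of UCP1 KO minus dKO (horizontal axis, bars are SE) for the tested members of the MAPK activity signature (left) and of the wider ERK feedback and target list (right). Filled circles are BAT and open squares are inguinal white fat (iWAT) of the same genotypes. Dusp4 was positive in both tissues (2.16 and 1.5), whereas Etv5, Spred1 and Spred2 were positive in BAT and near 0 in iWAT.

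Akap12 (chr10:4266380-4359470), a scaffold for protein kinase A, had 63.3, 45.9, 52.2, 57.3 and 62.4 CPM in UCP1 KO and 36.8, 40.3, 36.7, 34.7 and 40.1 CPM in dKO. This was the smallest of the called differences, 0.58 ± 0.077 on the log2 scale (SE, edgeR adjusted p = 0.0024), and the libraries did not overlap. Arhgef37 had 6.25, 15.1, 18.7, 10.2 and 9.97 CPM in UCP1 KO and 3.3, 2.28, 2.36, 3.42 and 5.43 CPM in dKO. The groups were nearest between library 1 of UCP1 KO and library 5 of dKO, and the log2 fold change was 1.84 ± 0.28 (SE, edgeR adjusted p = 0.00746).

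A pair of membrane receptors rose from low levels. Gabbr2 (chr4:46662305-46991873), a subunit of the GABA-B receptor, had 0.805, 4.92, 9, 2.02 and 2.05 CPM in UCP1 KO and 0.254, 0.471, 0.424, 0.257 and 0.481 CPM in dKO. Library 3 of UCP1 KO was the highest and library 1 the lowest, still above dKO, and the log2 fold change was 3.31 ± 0.52 (SE, edgeR adjusted p = 0.00746). Prlr (chr15:10177238-10349180), the prolactin receptor, had 1.31, 3.7, 4.6, 5.29 and 10.6 CPM in UCP1 KO and 0.807, 0.863, 0.377, 0.823 and 1.27 CPM in dKO. Library 1 of UCP1 KO lay next to the highest dKO library, and the log2 fold change was 2.62 ± 0.42 (SE, edgeR adjusted p = 0.00746). Leaving out library 5, the highest for Prlr and Etv5 and the one with the lowest mature adipocyte score, gave 2.16 for Prlr (edgeR adjusted p = 0.0207). Prlr shares its annotated span with another protein-coding gene on the same strand, Gm21973, so that reads of the overlap are uncertain.

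Further genes at an adjusted p under 0.05 were picked among those whose libraries did not overlap, so the lack of overlap was set by this choice. The largest rises of this kind with characterised names included metabolic and secreted genes. Cpt1a, which carries fatty acids into mitochondria and is the liver form of its enzyme, had 47.8, 50.5, 60.4, 82.1 and 160.0 CPM in UCP1 KO and 34.6, 28.7, 19, 27.6 and 29.8 CPM in dKO. The groups did not overlap, library 5 was highest, and the log2 fold change was 1.52 ± 0.25 (SE, edgeR adjusted p = 0.0112), and 1.11 without library 5, where it was called (edgeR adjusted p = 0.00499). Lcn2, the secreted lipocalin of inflamed tissue, had 0.939, 2.75, 1.61, 6.52 and 43.2 CPM in UCP1 KO and 0.554, 0.628, 0.731, 0.489 and 0.46 CPM in dKO. Library 5 was far above the others, and the log2 fold change was 4.26 ± 0.79 with it (SE, edgeR adjusted p = 0.0339) and 2.37 without it (edgeR adjusted p = 0.0233). Upp1, which breaks down uridine, had 6.69 ± 2.87 CPM in UCP1 KO and 2.72 ± 0.642 CPM in dKO (SD, n = 5), a log2 fold change of 1.30 ± 0.25 (SE, edgeR adjusted p = 0.0344). The transcriptional repressor Bach2 (1.34 ± 0.25), tuftelin, Tuft1 (1.42 ± 0.28), and the nucleotidase Entpd4 (1.86 ± 0.38) were also higher without overlap of the libraries (edgeR adjusted p = 0.0339, 0.0344 and 0.0498). Each of these 3, like Bcat2, Rasip1 and Plekha4 and the lower genes Gldn, Vipr2, Myl4 and Zhx2, overlaps a gene on the other strand, and since the strand setting of the counting is not given in the sources used here, reads of the partners cannot be told apart. Entpd4 may also share reads with a near-identical copy.

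Genes lower in UCP1 KO were fewer at this threshold, and those named were also picked for libraries that did not overlap. Vipr2, a receptor for the neuropeptides VIP and PACAP, had 1.53, 1, 2.44, 2.26 and 3.1 CPM in UCP1 KO and 6.34, 6.04, 3.84, 6.54 and 7.1 CPM in dKO. The groups did not overlap (log2 fold change -1.53 ± 0.29, SE, edgeR adjusted p = 0.0339), and WT had 1.22 ± 0.573 CPM (SD, n = 5). Gldn, which encodes gliomedin, a matrix protein known from nerve nodes, had 1.88, 1.1, 2.46, 1.73 and 2.88 CPM in UCP1 KO and 15, 11.4, 7.97, 4.3 and 6.44 CPM in dKO. The highest UCP1 KO library was below the lowest dKO library, with a log2 fold change of -2.16 ± 0.42 (SE, edgeR adjusted p = 0.0344). Myl4, an embryonic and atrial myosin light chain, had 2.47, 4.15, 4.16, 2.45 and 2.38 CPM in UCP1 KO and 5.24, 5.41, 5.96, 12.1 and 6.5 CPM in dKO, highest in dKO library 4, which also had the highest muscle score of dKO. Its log2 fold change was -1.17 ± 0.22 (SE, edgeR adjusted p = 0.0321), and -1.04 with the muscle score as a covariate (edgeR adjusted p = 0.0307). The transcription factor Zhx2 (-0.44 ± 0.090) and the chloride transporter Clcn3 (-0.29 ± 0.057) were lower by less than 1.5-fold, without overlap (edgeR adjusted p = 0.0439 and 0.0344).

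Genes beside Fgf21 on chromosome 7 were followed because the deletion lies there. Of 12 other genes tested within 100 kb of Fgf21, 6 were higher in UCP1 KO at an unadjusted p under 0.05 and 0 were lower, with a median log2 fold change of 0.498, against 7.17% and 5.77% of all genes. In WT minus FGF21 KO, 4 of the same 12 genes were higher and 1 was lower, against 8.55% of all genes in either direction. From 100 kb to 1 Mb, 4 of 61 were higher and 1 was lower, with a median of 0.0318, and from 1 to 10 Mb 0 of 72 were higher and 5 were lower. Around Ucp1, which was deleted in both groups, 8 of 117 genes within 10 Mb were higher and 6 were lower, and 0 were called.

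Hsd17b14 (chr7:45554893-45567752), a hydroxysteroid dehydrogenase 46134 bp from Fgf21, was the only gene of this stretch called in edgeR with all libraries, and DESeq2 also called Bcat2 and Rasip1. It had 0.992, 0.675, 0.407, 0.817 and 0.894 CPM in UCP1 KO and 0.115, 0.157, 0.212, 0.206 and 0.272 CPM in dKO. All levels were low and did not overlap, a log2 fold change of 1.95 ± 0.31 (SE, edgeR adjusted p = 0.00746). In mice with UCP1 the same Fgf21 loss left it at 0.603 ± 0.174 CPM in WT and 0.645 ± 0.229 CPM in FGF21 KO (SD, n = 5), and the difference between the differences was 2.04 on the log2 scale (unadjusted p = 0.00012, edgeR adjusted p = 0.612). Hsd17b14 was chosen by UCP1 KO minus dKO, a part of that difference, so the unadjusted p tends to be too small.

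Rasip1, a RAS-interacting protein of blood vessel endothelium, had 29.2, 21.5, 28.3, 33.2 and 28.4 CPM in UCP1 KO and 21.4, 20.7, 19.7, 17.7 and 18.7 CPM in dKO. The groups were apart by 0.52 ± 0.092 on the log2 scale (SE, edgeR adjusted p = 0.0238), and WT and FGF21 KO, which share no library with them, were apart by 0.55 ± 0.093 (SE, edgeR adjusted p = 0.0779). Bcat2, the mitochondrial enzyme that starts branched-chain amino acid breakdown, had 84.8, 72.9, 70.4, 95.7 and 124 CPM in UCP1 KO and 56.4, 40.1, 51.1, 63.3 and 53.5 CPM in dKO. Its log2 fold change was 0.76 ± 0.15 (SE, edgeR adjusted p = 0.0344), and 0.33 ± 0.15 for WT minus FGF21 KO (unadjusted p = 0.0379). Izumo1, a sperm protein at low level in fat, was 0.76 and 0.99 in the 2 contrasts (unadjusted p = 0.00277 and 0.000327 in edgeR), and it overlaps Rasip1 on the same strand, so that shared reads are uncertain. The adaptor gene Plekha4 (0.86 ± 0.32), the calcium-binding Golgi protein gene Nucb1 (0.23 ± 0.082), the cation channel Trpm4 (0.40 ± 0.13), the potassium channel Kcnj14 (0.93) and the myosin Myh14 (0.37) were higher and Vrk3 (-0.14) was lower at an unadjusted p of 0.05 within 1 Mb, none past adjustment in edgeR. Without the 4 libraries with a high muscle score Kcnj14 was at 0.091, Plekha4 at 0.32 and Nucb1 at 0.077, and Plekha4 was at 0.48 without library 2 of UCP1 KO.

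Fut1, a fucosyltransferase 1799 bp from Fgf21, had opposite signs in the 2 settings. It had 16 to 44 counts per library in UCP1 KO and 5 to 12 in dKO, a log2 fold change of 1.58 ± 0.33 (SE, edgeR adjusted p = 0.0588). In WT it had 0 to 1 counts and in FGF21 KO 4 to 8, the reverse order. It was the only gene whose difference between the 2 settings passed an adjusted p of 0.05 (log2 difference 4.94, edgeR adjusted p = 0.0102), a size that rests on counts at or near 0 in WT.

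**Figure D4:**
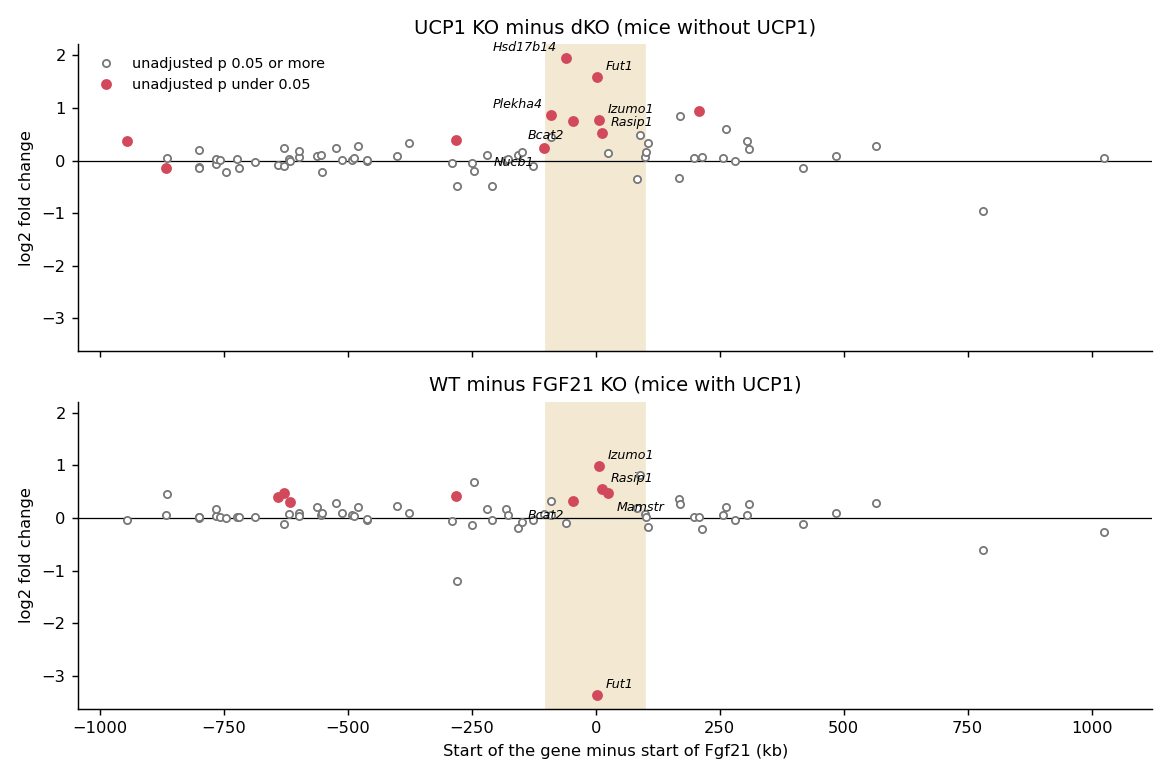
Log2 fold change (vertical axis) of genes within 1 Mb of Fgf21 against the distance of their start from that of Fgf21 (kb, horizontal axis), without Fgf21 itself, for UCP1 KO minus dKO (top) and WT minus FGF21 KO (bottom). Filled points have an unadjusted p under 0.05 and the shaded band marks 100 kb on either side. Rasip1, Izumo1 and Bcat2 are positive in both panels, Hsd17b14 in the top panel (1.95 against -0.088) and Fut1 turns from 1.58 to -3.36.

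Loss of Fgf21 in mice with UCP1 gave 0 called genes in edgeR, with 1345 genes at an unadjusted p of 0.05 (8.55%). The smallest adjusted p was 0.0779, for Rasip1, and DESeq2 called 30. The interaction, which asks whether the Fgf21 difference itself depends on UCP1, had 0 genes at an adjusted p of 0.01 in edgeR, with 845 at an unadjusted p of 0.05 (5.37%) and 1 gene called in DESeq2. For the feedback genes its unadjusted p was 0.00166 for Dusp4 (log2 difference 1.44), 0.000268 for Spred1 (0.81), 0.0116 for Spred2 (0.52) and 0.000179 for Etv5 (1.56), and none passed adjustment in edgeR. These genes were chosen by UCP1 KO minus dKO, which is a part of the interaction itself, so their unadjusted p-values tend to be too small. In WT minus FGF21 KO, where Fgf21 was at 0.228 to 0.29 CPM in WT, the log2 fold change was 0.71 ± 0.28 for Dusp4 (SE, unadjusted p = 0.0194), 0.31 ± 0.13 for Spred2 (unadjusted p = 0.0278), 0.13 ± 0.13 for Spred1 and -0.021 ± 0.24 for Etv5.

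No gene of brown fat identity or oxidative phosphorylation was called in edgeR. Of 24 brown adipocyte genes 0 were called in edgeR, 19 were negative with a median of -0.162, 19 had an interval inside 2-fold, against 81.6% of all genes, and Ucp1 was the only one with an unadjusted p under 0.05, where 5.77% of all genes were lower. Ucp1 was knocked out in both groups, so its counts do not measure brown fat identity here. Of 24 genes of oxidative phosphorylation 23 were negative, 23 had an interval inside 2-fold, and the median was -0.143. Of them 8 were lower at an unadjusted p of 0.05, against 5.77% of all genes, such as Cycs (cytochrome c), with 633 ± 141 CPM in UCP1 KO and 782 ± 58.9 CPM in dKO (SD, n = 5, log2 fold change -0.31), and Atp5a1, an ATP synthase subunit (-0.20), and 0 passed adjustment. Without library 5, which had the lowest mature adipocyte score, Cycs was at -0.21 and Atp5a1 at -0.14, and with a term for the macrophage score they were at -0.21 and -0.14.

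Futile cycles proposed as heat sources without UCP1 gave scattered values. Among 15 such genes, 2 were higher and 2 lower at an unadjusted p of 0.05, against 7.17% and 5.77% of all genes, and 0 were called in edgeR. Ckb, the creatine kinase of creatine cycling, had 36.8, 14.4, 25.3, 56.3 and 156 CPM in UCP1 KO and 28.8, 15.7, 13.2, 29.2 and 18.7 CPM in dKO. The groups overlapped and library 5 was the highest (log2 fold change 1.45 ± 0.43, SE, edgeR adjusted p = 0.203), without which the log2 fold change was 0.65. Atp2a2, the gene of the calcium pump SERCA2 of calcium cycling, whose isoforms the counts do not separate, had 376 ± 51.1 CPM in UCP1 KO and 482 ± 67.7 CPM in dKO (SD, n = 5, -0.36 ± 0.099, SE, edgeR adjusted p = 0.188). Sln, the muscle regulator of that pump, had 0.0218 to 3.12 CPM in UCP1 KO and 0 to 14.6 CPM in dKO. Its log2 fold change was -2.66 ± 1.22 (SE, edgeR adjusted p = 0.367), -2.14 with a term for the muscle score, -0.21 without the 4 libraries with a high muscle score, -5.43 with a term for the macrophage score and -6.31 without library 2 of UCP1 KO (edgeR adjusted p = 0.0477).

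Most genes of the lipid lists had negative log2 fold changes, 16 of 20 in fatty acid oxidation, 13 of 17 in glyceroneogenesis and lipid cycling and 11 of 16 in lipogenesis, and 0 were called in edgeR with all libraries. Of 20 genes of fatty acid oxidation, Cpt1a and Acot2 were higher at an unadjusted p of 0.05 and 3, among them Acadm and Acaa2, were lower, with a median of -0.119, against 7.17% and 5.77% of all genes. Acadm, the medium-chain dehydrogenase, had 1989 ± 464 CPM in UCP1 KO and 2703 ± 178 CPM in dKO (SD, n = 5, -0.44 ± 0.11, SE, edgeR adjusted p = 0.146), and without library 1 of UCP1 KO it was called (-0.59, edgeR adjusted p = 0.000946). Acot2 was at 0.75, and at 0.39 without library 5. Of 17 genes of glyceroneogenesis and lipid cycling the inhibitor of lipolysis G0s2 (-0.80 ± 0.19, edgeR adjusted p = 0.096) and the triglyceride synthase Dgat2 (-0.54 ± 0.17, edgeR adjusted p = 0.23) were lower at an unadjusted p of 0.05, and the median was -0.078. G0s2 had 137, 163, 143, 135 and 129 CPM in UCP1 KO and 184, 288, 361, 138 and 263 CPM in dKO. It was 1 of the 7 genes called without the 4 libraries with a high muscle score (-1.02, edgeR adjusted p = 0.0054) and was called in DESeq2. Lipogenesis had a median of -0.227 and gave 1 of 16 genes higher, Elovl5 (0.41), and glycolysis 1 of 18 higher, the glucose transporter Slc2a1 (0.77), and 1 lower, Pgk1 (-0.28), all at an unadjusted p of 0.05 and none past adjustment in edgeR. Without library 5 Slc2a1 was at 0.41, and without the 4 libraries with a high muscle score Elovl5 was at 0.19. Of 16 genes of adipocyte differentiation and adipokines, Cebpb (-0.51) alone had an unadjusted p under 0.05.

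No gene of the integrated stress response, which induces Fgf21 through ATF4, was called in edgeR. Trib3, a target of ATF4, had 163 ± 108 CPM in UCP1 KO and 83.7 ± 17.3 CPM in dKO (SD, n = 5), against 5.88 ± 1.16 CPM in WT. Of 24 genes of the list 3 were higher at an unadjusted p of 0.05, among them Trib3 (0.96) and Aldh1l2 (1.17), and 2 were lower (Asns, -0.29, and Eif4ebp1, -0.31), against 7.17% and 5.77% of all genes, and the median was 0.0933. Without library 5 of UCP1 KO Trib3 was at 0.63 and Aldh1l2 at 0.65, and with a term for the macrophage score at 0.63 and 0.62. Asns, the asparagine synthetase, had 87.4 to 121 CPM in UCP1 KO and 125 to 149 CPM in dKO. Among 15 secreted factors of brown fat, Bmp8b (0.79 ± 0.36) and Pltp (0.53 ± 0.25) were higher and Epdr1 (-0.56 ± 0.19) was lower at an unadjusted p of 0.05, against 7.17% and 5.77% of all genes, and the smallest adjusted p in edgeR was 0.258. Pltp was at 0.19 without library 5 and at 0.18 without the 4 libraries with a high muscle score, where Bmp8b was at 0.43.

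Immune genes leaned towards UCP1 KO. Of 21 chemokines and cytokines 7 were higher at an unadjusted p of 0.05, against 7.17% of all genes, 0 were lower and 0 were called in edgeR, with a median of 0.538. Csf1, the growth factor of macrophages, had 12.9, 35.3, 19.7, 40.9 and 44 CPM in UCP1 KO and 15.4, 19.1, 12.6, 18.3 and 15.5 CPM in dKO. Library 1 of UCP1 KO lay in the dKO range, and the log2 fold change was 0.92 ± 0.25 (SE, edgeR adjusted p = 0.172), and 1.11 without library 1, where it was called (edgeR adjusted p = 0.00873). All 10 macrophage markers were positive, 4 of them at an unadjusted p of 0.05, with a median of 0.469. Adgre1, which encodes F4/80, had 13.2, 30.7, 9.09, 19.9 and 32.3 CPM in UCP1 KO and 10.9, 16.8, 5.8, 16.9 and 11.4 CPM in dKO, and the groups overlapped. The summed macrophage markers ran from 178 to 461 CPM in UCP1 KO and from 183 to 293 CPM in dKO. With a term for the macrophage score the log2 fold change of Csf1 was 0.47 (edgeR adjusted p = 0.656), that of Ccl12 0.41 against 1.40 without the term, and that of Ccl9 0.25 against 0.73. Without that term, Ccl12 was at 0.82 when library 5 of UCP1 KO was left out, and Ccl9 at 0.45 when library 2 was left out.

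Of 20 extracellular matrix genes 3 were higher at an unadjusted p of 0.05, against 7.17% of all genes. Sparc, a collagen-binding matrix protein, had 1378, 1571, 1521, 1514 and 1481 CPM in UCP1 KO and 1140, 1248, 1126, 1200 and 1179 CPM in dKO, with no overlap (log2 fold change 0.34 ± 0.066, SE, edgeR adjusted p = 0.0344), and the basement membrane collagens Col4a1 and Col4a2 were both at 0.20. Without the 4 libraries with a high muscle score Col4a1 was at 0.11 and Col4a2 at 0.096. Of 6 nerve and Schwann cell markers 4 were higher and 1 lower at an unadjusted p of 0.05, against 7.17% and 5.77% of all genes. The myelin gene Pmp22 had 59.8 ± 8.15 CPM in UCP1 KO and 41.8 ± 2.74 CPM in dKO (SD, n = 5, 0.52 ± 0.11, SE, edgeR adjusted p = 0.0676), while S100b, which brown adipocytes also make and secrete towards nerves, had 51.8 ± 6.33 and 72.2 ± 7.78 CPM (-0.48 ± 0.11, SE, edgeR adjusted p = 0.0897). Of 18 angiogenesis genes 2 were higher, Esm1 (1.34) and Nrp2 (0.47, and 0.23 without library 5), against 7.17% of all genes, and of 20 cell cycle genes 0 had an unadjusted p under 0.05.

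**Figure D5:**
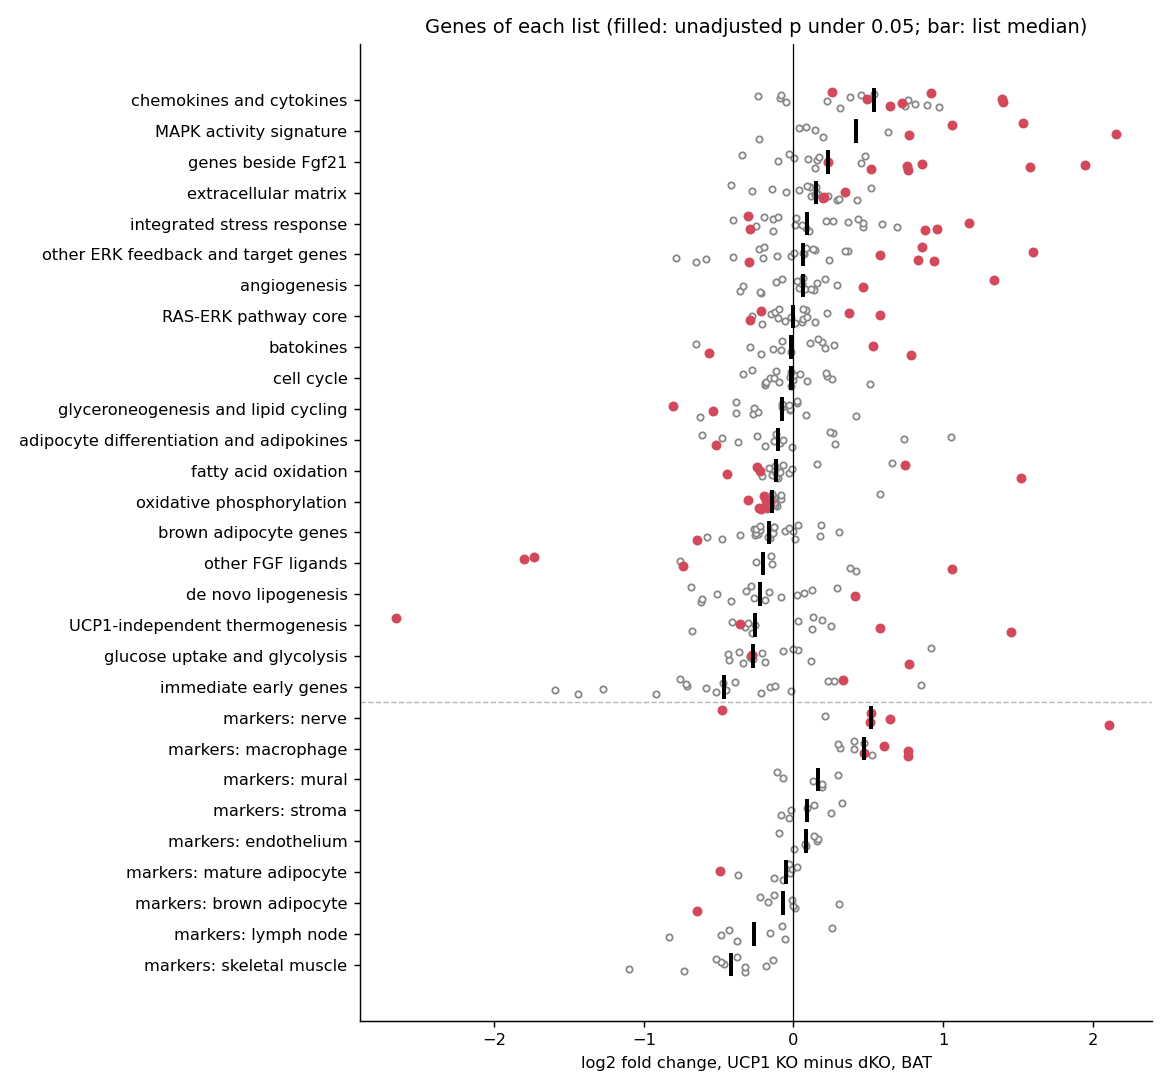
Log2 fold change of UCP1 KO minus dKO in BAT (horizontal axis) for every tested member of the gene lists, without the receptor list that holds Fgf21, and, under the dashed line, of the cell type markers. Filled points have an unadjusted p under 0.05 and black bars are list medians, which run from -0.463 for immediate early genes to 0.538 for chemokines and cytokines among the gene lists.

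The same comparison in iWAT, the inguinal subcutaneous depot, was set beside BAT in 1 fit of 40 libraries. Differences between the tissues come from this fit and values within a tissue from the fit of its own 20 libraries, so that they need not subtract exactly. Of 15479 genes tested in both tissues, the difference between BAT and iWAT passed an adjusted p of 0.01 for 254 in edgeR (1.64%), 20 more positive in BAT and 234 more negative, and 2701 had an unadjusted p under 0.05 (17.4%). Without the iWAT libraries with a lymph node marker score above 4 the count was 638, and leaving out 1 library at a time gave 122 (without iWAT UCP1 KO library 5) to 593 (without iWAT UCP1 KO library 2). Feedback genes were among the 20. Etv5 differed between the tissues by 1.69 ± 0.36 on the log2 scale (SE, edgeR adjusted p = 0.00464), with 11.5 ± 4.09 CPM in UCP1 KO and 12.5 ± 2.77 CPM in dKO of iWAT (SD, n = 5). Spred1 differed by 0.98 ± 0.22 (edgeR adjusted p = 0.00711) and Spred2 by 0.98 ± 0.20 (edgeR adjusted p = 0.00284), both with iWAT fold changes near 0 (-0.0025 and -0.10 on the log2 scale). Dusp4 rose in iWAT too, by 1.5 ± 0.28 (SE, edgeR adjusted p = 0.00969), and its difference between the tissues, 0.71 ± 0.40, did not pass (edgeR adjusted p = 0.363).

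Cpt1a (1.46 ± 0.30, edgeR adjusted p = 0.00327), Upp1 (1.45 ± 0.31, edgeR adjusted p = 0.00382) and Tuft1 (1.79 ± 0.42, edgeR adjusted p = 0.00998) were likewise more positive in BAT. Fut1 was 1.58 in BAT and -1.76 in iWAT (difference edgeR adjusted p = 0.00485). Prlr (2.75) and Hsd17b14 (1.67) missed the threshold (edgeR adjusted p = 0.0183 and 0.0177). Akap12, Arhgef37 and Gabbr2 had differences of 0.78, 0.65 and 1.74 (edgeR adjusted p = 0.184, 0.584 and 0.189).

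The 5 genes with the smallest p for this difference were all more negative in BAT, through higher levels in UCP1 KO than in dKO of iWAT. The mitochondrial protein gene Letmd1 had 971, 654, 914, 795 and 664 CPM in BAT of UCP1 KO and 925, 1007, 825, 747 and 1030 CPM in dKO. These overlapped (-0.18 ± 0.11, SE), against 2.22 ± 0.28 in iWAT, a difference with an edgeR adjusted p of 1.69e-05. The glycerol phosphate dehydrogenase Gpd2 (-0.27 in BAT, 2.57 in iWAT), the coenzyme A synthesis enzyme Pank1 (-0.32, 2.55), the thioesterase Acot11 (-0.37, 4.55) and the transporter Mfsd4b1 (-0.18, 3.45) followed, with differences at edgeR adjusted p-values of 3.14e-05, 3.41e-05, 3.41e-05 and 3.49e-05. With 1 BAT library left out, the BAT value ran from -0.39 to -0.13 for Gpd2 and from -0.59 to -0.20 for Pank1. It ran from -0.62 to -0.15 for Acot11 and from -0.36 to -0.095 for Mfsd4b1. Without the 4 BAT libraries with a high muscle score Acot11 was at -1.01. Ucp1 counts also differed between the tissues (-0.64 in BAT, 4.28 in iWAT, difference edgeR adjusted p = 0.00575), although the gene was knocked out in both groups of both tissues.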

How the data were processed

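RNA was sequenced by the authors from poly(A)-selected, strand-marking libraries as 100 bp paired-end reads, aligned to mm10 with STAR 2.4.2a and counted over UCSC known genes with HTSeq 0.6.0. The values as deposited by the authors are raw read counts per gene, and which strand option the counting used is not given in the sources used here. Positions come from a GENCODE annotation of the same build and upstream windows from RefSeq.

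Genes were kept in a tissue if their highest count exceeded 15, their sum exceeded 75 and at most 10 of the 20 libraries were at 0. edgeR 4.0.16 (R 4.3.3, limma 3.58.1) fitted 1 quasi-likelihood model with TMM factors to the 20 BAT libraries with 4 genotype means. Genes were called at a Benjamini-Hochberg adjusted p under 0.01 over all genes tested. CPM uses TMM-scaled totals, and SE is the log2 fold change over the root of its F. The BAT and iWAT comparison was tested in 1 fit of 40 libraries. DESeq2 1.42.0, other factors, no filter, 2 genotypes alone, a term for the muscle score, an adjusted p of 0.05 and single left-out libraries were alternatives. A macrophage covariate and leaving out the 4 libraries with a muscle score above 8 were added after the data had been seen. The steps were tested on simulated counts. Totals of 34890799 to 46513671 counts limit precision mainly for genes under 1 CPM.

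Libraries were grouped by their labels, and library numbers follow deposition order and pair nothing. Genes were named by rule: those called, the largest changes at an adjusted p under 0.05 without overlap (uncharacterised names passed over), Ucp1, Fgf21, Fgf12, Klb, Fgfr1, the MAPK activity signature, up to 4 genes with the smallest p in each list, neighbours of Fgf21 within 1 Mb with an unadjusted p under 0.05, and the 5 genes with the smallest p called in the interaction or the tissue difference. Members and gene lists were chosen with earlier results of these data known. Some items are not reported here.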

Additional observations from a re-analysis of the deposited data

Results flagged for a closer look

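In 3 of 83 combinations of a named gene and a genotype, 1 library lay far from the other 4, where chance gives about 1 in 20. Lcn2 had 43.2 CPM in library 5 of UCP1 KO, against 0.939 to 6.52 CPM in the others. Myl4 had 12.1 CPM in library 4 of dKO, against 5.24 to 6.5 CPM. Plekha4 had 7.67 CPM in library 2 of UCP1 KO, against 2.77 to 3.33 CPM.

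Fut1 differed between mice without and with UCP1 in its response to loss of Fgf21, with a log2 difference of 4.94 (edgeR adjusted p = 0.0102). UCP1 KO minus dKO also differed between BAT and iWAT for a number of named genes at an adjusted p under 0.01 in edgeR. More positive in BAT were Etv5 by 1.69, Spred1 by 0.982, Spred2 by 0.979, Cpt1a by 1.46, Tuft1 by 1.79, Upp1 by 1.45 and Fut1 by 3.41 on the log2 scale. More negative in BAT were Ucp1 at -4.87, Letmd1 at -2.34, Gpd2 at -2.78, Pank1 at -2.81, Acot11 at -4.85 and Mfsd4b1 at -3.57. No cause was tested for any of these.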

How the results depend on the processing

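The number of genes called in BAT depended strongly on the setting, and the cause was not tested. Against 10 genes, it was 34 at an adjusted p of 0.05, 56 with DESeq2, 1 with the 2 genotypes alone (fewer libraries behind the spread), 6 with a term for the skeletal muscle score, 1 with a term for the macrophage score and 7 without the 4 libraries with a high muscle score. Leaving out 1 library gave 1 (dKO library 1) to 32 (UCP1 KO library 1), and every left-out library except UCP1 KO library 5 moved the count by over 1.5 times. Other factors gave 11 and no filter 12 genes. The interaction, at 0 genes, had 1 at an adjusted p of 0.05, 1 with DESeq2 and 0 to 1 with 1 library left out. WT minus FGF21 KO, at 0, had 30 with DESeq2 and 0 to 2 with 1 library left out. The 254 genes that differed between BAT and iWAT became 668 at an adjusted p of 0.05, 476 with DESeq2, 638 without the iWAT libraries with many lymph node transcripts and 122 to 593 with 1 library left out. The number of genes with an interval inside 2-fold, 12839, stayed within 1.5 times under each of them. Without the 4 libraries with a high muscle score the log2 fold change changed sign for Epha4 (-0.082), Rps6ka1 (-0.0075) and Fads2 (-0.053). With 1 library left out, Klb ran from -0.14 to 0.020, Epha2 from -0.085 to 0.15 and Epha4 from -0.050 to 0.20, none of them called in any of these. Of the 9 called genes besides Fgf21, Dusp4 lost its call in 1 of 20 such fits, Akap12 in 2 and Spred1 in 3. Arhgef37 lost it in 14, Hsd17b14 in 15, Etv5 in 16, Spred2 and Gabbr2 in 17 each and Prlr in 18.

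No paired analysis was possible because the labels give the groups no shared replicate numbers. Genes under 1 CPM, such as Hsd17b14 and Fut1, rest on few counts per library, which limits their precision.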
